A study of Mus musculus with 96 samples.

Results

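Krt14-high and Krt14-low sister cells are the paired daughter cells of single divisions of cultured horizontal basal cells (HBCs) in which one sister held at least 1.5 times as much Krt14 mRNA as the other. The pairs were chosen by this measured value. In each of the 96 cells the Krt14 count was divided by the summed count of the ERCC spike-in, synthetic RNAs added to every lysate in equal amount, and the higher sister was divided by the lower. Of the 48 pairs, 16 met the cutoff, which is 33.3% of pairs (95% exact Clopper-Pearson interval 20.4 to 48.4%, for counting error only). These 16 pairs hold 32 cells, and the other 32 pairs stayed under the cutoff.

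All 96 cells belong to 1 condition. HBCs were taken from the olfactory epithelium (OE) of wild-type adult mice of 6 to 8 weeks, 2 days after an injection of methimazole, an agent that strips the OE, and were grown on Tropoelastin and then moved to Fibronectin to divide. Both daughters were picked by hand after a division, and each was sequenced as its own library by G&T-seq, an oligo-dT method without molecular identifiers. The labels name neither the mouse nor the culture of a cell, so the cells count as 1 sample and the comparison of sisters is a description of these pairs, without a test. Cells in culture hold none of the neighbours of HBCs in the tissue.

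HBCs are the reserve stem cells of the OE. They lie on the basement membrane and carry keratins 5 and 14, which pair as a type II and a type I chain in the filaments of basal epithelial cells. The transcription factor p63, encoded by Trp63, holds these cells in the basal state, and its known targets include keratins and the integrins that anchor a cell to the basement membrane. On injury p63 goes down, the cells divide, and keratins 6, 16 and 17 mark the activated or wounded epithelium. The question put to the pairs was which other transcripts were higher or lower in the sister with more Krt14.

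The cells were sequenced deeply and evenly. Gene counts per cell were between 29454150 and 44849003, with 11403 to 14632 genes at a count of 1 or more and 1.12 to 3.84% of counts in mitochondrial genes, and the ERCC share was 1.06 to 5.75%. Both sisters of every pair carried the same one of 12 set numbers in the names of their data, and the chosen pairs came from 10 of these sets. The basal markers fitted the label, since Krt14, Krt5 and Trp63 were counted in all 96 cells. Of 12 markers of the olfactory neuron lineage, Kit and Cnga2 had no count in any cell and only Gap43 and Gnal reached 10 counts in 10% of cells. The summed ERCC-scaled counts of this list were 0 to 550 in the high sisters (median 74.6) and 0 to 618 in the low sisters (median 4.87), higher in the high sister in 11 of 16 pairs. Of 12 markers of sustentacular and microvillous cells, Ermn, Sult1c1 and Foxi1 were at 0 everywhere and Cbr2 alone passed the filter. The sum of this list was 1872 to 172698 in the high sisters (median 28713) and 2212 to 340182 in the low sisters (median 22112), higher in the high sister in 10 of 16 pairs. Of 14 markers of respiratory, gland, stromal, endothelial and blood cells, Sox10, Dcn and Cdh5 were at 0, Cd68 alone passed the filter, and the sums were 0 to 4584 in the high sisters (median 1292) and 2.84 to 7526 in the low sisters (median 73.2), higher in the high sister in 9 of 16 pairs. The part of these markers in the results was not tested.

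Among the chosen pairs, Krt14 ranged over more than the ratio of sisters. Krt14 (ENSMUSG00000045545, chr11:100203162-100207548 of GRCm38, minus strand) encodes the type I keratin of basal cells. Its ERCC-scaled count, the count times the median ERCC total over the cell's own ERCC total, was 4982 to 812207 in the 16 high sisters, with a median of 173369. In the 16 low sisters it was 434 to 196230, with a median of 59947. The ranges overlapped: 1 low sister lay above the median high sister, and 2 high sisters lay under the median low sister, so high and low are relative to the sister and not to the population. Over all 48 pairs the SD of the pair mean of log2 Krt14 was 1.34, and 1.23 without pair 4, while the median ratio of sisters was 0.36 on the log2 scale.

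**Figure D1:**
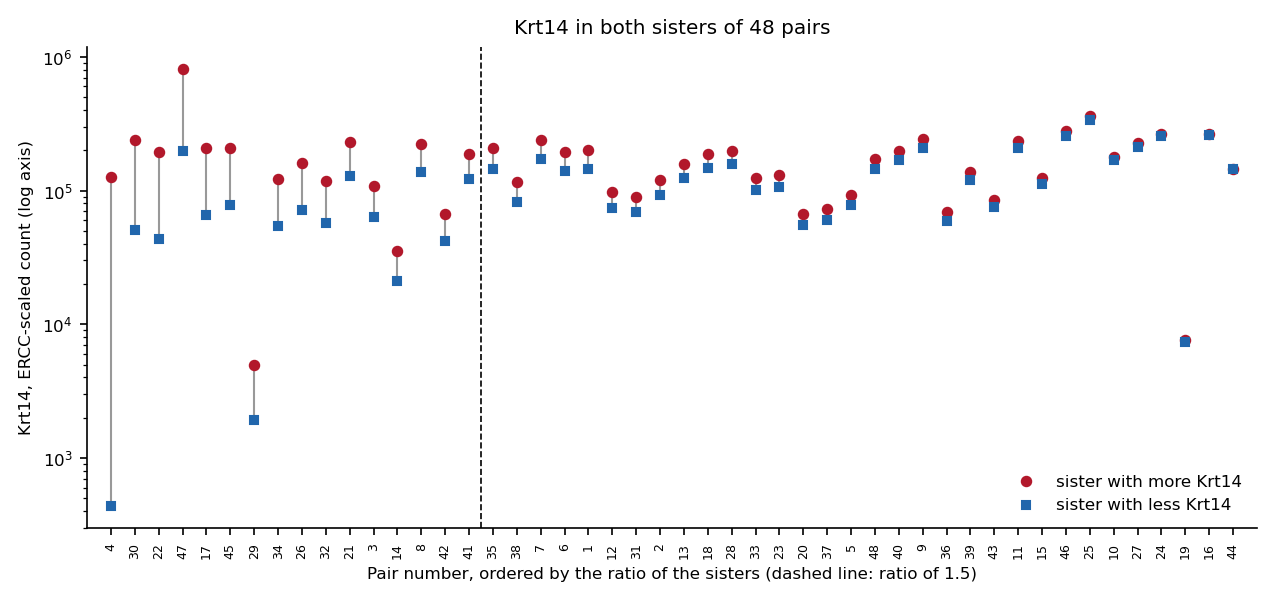
Krt14 as ERCC-scaled count on a log axis in both sisters of the 48 pairs, ordered by the ratio of the sisters, with red circles for the sister with more and blue squares for the sister with less. The 16 pairs left of the dashed line were chosen by this ratio; pair 4 stands apart at 126636 against 434, and pairs 29 and 19 lie under 10000 in both cells.

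The ratio itself fell into 1 extreme pair and 15 moderate ones. Pair 4 had a ratio of 292, with 137110 counts in 1 sister and 691 in the other. The next were pair 30 at 4.65, pair 22 at 4.40, pair 47 at 4.14 and pair 17 at 3.17. The median of the 16 was 2.22 and the lowest were pair 42 at 1.59 and pair 41 at 1.54. Just under the cutoff lay pair 35 at 1.43 and pair 38 at 1.42. The daughter numbered 1 was the high sister in 9 of 16 pairs.

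A spike-in ratio carries the RNA content of the cell. The ratio of gene counts to ERCC counts was higher in the Krt14-high sister in 12 of 16 pairs, with a median of 1.14 times the low sister and a range of 0.763 to 2.37, and higher in 19 of the 32 other pairs, with a median of 1.02. Genes counted were more numerous in the high sister in 10 of 16 pairs, and the mitochondrial share was higher in 6 of 16. The main differences are therefore given also after scaling to the cell's total of gene counts, which takes the RNA content out. Krt14 was higher in the same sister in all 16 pairs on that scale too, by 1.34 to 171 times with a median of 2.03, and 13 of the 16 pairs stayed at 1.5 or more. Pair 47 moved most, from 4.14 to 1.74, and its ERCC totals differed by over 2-fold between sisters.

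The count filter, 10 counts in at least 10% of the cells, kept 14463 genes. For each gene the log2 ratio of high to low sister, with 1 added to each scaled count, was taken as its median over the 16 pairs, and the median of all genes was 0.02, and 0.00 by gene total. A gene was said to be past the fold when its own median over pairs was at least 1.5-fold in size. By this measure 2862 genes, 19.8%, were past the fold higher in the Krt14-high sister and 1082, 7.48%, lower. By gene total these were 14.2% and 10.8%, so that the higher genes made up 72.6% of the genes past the fold with ERCC scaling and 56.8% by gene total. Many of them have few counts: of the 1514 genes with a mean scaled count of 5000 or more, 13.9% were past the fold higher and 0.396% lower, which are 210 and 6 genes. Their median was 0.20 with ERCC and 0.02 by gene total. All counts of list members below are to be read against these shares.

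The partner keratin Krt5 was higher in the Krt14-high sister in 13 of 16 pairs. Krt5 (ENSMUSG00000061527, chr15:101707070-101712898, minus strand) is the type II chain that pairs with keratin 14. Its scaled count was 29974 to 405243 in the high sisters (median 107360) and 4248 to 178280 in the low sisters (median 56321), so the groups overlapped. The median ratio was 2.01-fold, 1.01 on the log2 scale with quartiles of 0.24 and 1.44, and it was 0.67 by gene total and 0.83 without pair 4. The exceptions were pair 34 at -0.72, pair 22 at -0.33 and pair 26 at -0.11. Oriented in the same way, the 32 other pairs had a median for Krt5 of 0.18, with 20 of 32 pairs higher.

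The sequence shown here is the stretch before the Krt5 start, since Krt5 is the partner chain of keratin 14 and, like Krt14, a known target of p63. It spans chr15:101712906-101713155 of GRCm38.p6 on the minus strand, from RefSeq, 5′ to 3′, and the capitals mark the only match to the p53/p63-family half-site, which begins 95 bases before the start.

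Krt5: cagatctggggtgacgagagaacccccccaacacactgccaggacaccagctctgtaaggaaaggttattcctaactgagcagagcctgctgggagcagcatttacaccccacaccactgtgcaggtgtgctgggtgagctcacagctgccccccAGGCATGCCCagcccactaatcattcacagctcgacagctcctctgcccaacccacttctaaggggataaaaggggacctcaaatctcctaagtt

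The half-site was searched on both strands in the 250 bases before each start, and 7.18% of 27025 RefSeq promoters held it. Among the 6 type II keratins with an entry, Krt5 alone held one, and none of the 5 type I keratins with an entry did. Of the 10 genes of the p63 list with an entry, 1 held it, Cdkn1a. A match in these letters is a description of the window and not a bound site.

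Trp63 itself was higher in the Krt14-high sister in 12 of 16 pairs. Its scaled count was 2159 to 25921 in the high sisters (median 8276) and 882 to 14141 in the low sisters (median 4245). The median ratio was 1.11 on the log2 scale with quartiles of -0.18 and 1.45, 0.75 by gene total and 0.94 without pair 4. Trp63 was at least 1.5-fold higher in 10 pairs and at least 1.5-fold lower in 4 pairs, which were pairs 21, 34, 41 and 30. Of the 32 other pairs, 14 had more Trp63 in the sister with more Krt14, and the median was -0.10. By this fold 35 of all 48 pairs were apart in Trp63, and 14 of those 35, 40.0%, were among the chosen pairs, which is 87.5% of the chosen pairs.

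**Figure D2:**
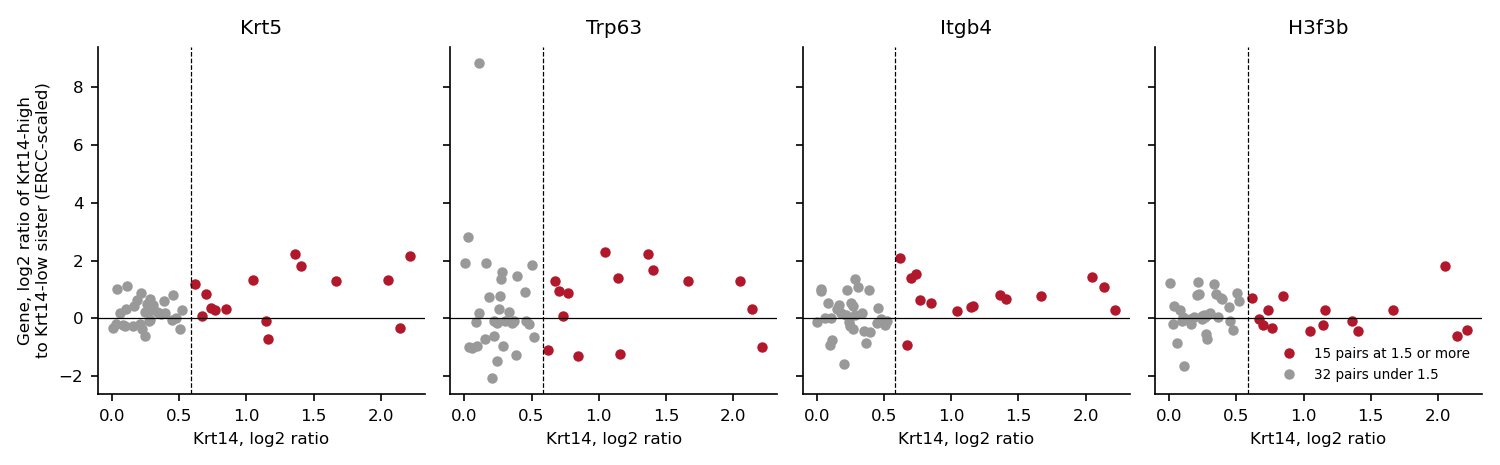
Within-pair log2 ratio (Krt14-high to Krt14-low sister, ERCC-scaled) of Krt5, Trp63, Itgb4 and H3f3b against that of Krt14, in the 47 pairs other than pair 4, with the 15 chosen pairs in red and the 32 others in grey. Krt5, Itgb4 and Trp63 lie above 0 in most red points, each with at least 1 exception, and H3f3b lies around 0. The cutoff on Krt14 is the dashed line.

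The keratins of activated epithelium were, with exceptions, higher in the same sister. Krt6a and Krt6b, neighbouring type II keratins induced on wounding, had a median of 1.00 and 1.06 and were each higher in 12 of 16 pairs. Krt6a was at 22718 to 726886 in the high sisters (median 138908) and at 569 to 155716 in the low sisters (median 60420). By gene total the medians were 0.58 and 0.73, which leaves Krt6a just under the fold. Of the possible 150-base reads of Krt6a, 18.7% occur also in Krt6b or a further gene, so the 2 are not fully separate measurements. Krt16, a type I partner of keratin 6, had the widest spread, with a median of 1.27, 1.16 by gene total and 0.86 without pair 4, quartiles of -0.12 and 2.94 and 10 of 16 pairs higher. It was at 28 to 86531 in the high sisters (median 560) and at 2.5 to 23854 in the low sisters (median 164), and 18.4% of its possible reads occur also in Gm11597. Of the 32 other pairs, 17 had more Krt16 in the sister with more Krt14.

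Krt17 and Krt19 went the same way by a smaller amount. Krt17, a type I keratin of wounded and appendage epithelium, was among the most abundant keratins, at a median of 182706 in the high and 103731 in the low sisters, with a median ratio of 0.49, 0.38 by gene total, and 12 of 16 pairs higher. Krt19, a type I keratin of simple and stem-like epithelium, had a median of 0.72, was higher in 12 of 16 pairs and stayed past the fold by gene total at 0.64, though not without pair 4, at 0.55. None of the possible reads of Krt14, Krt5, Krt17, Krt18 and Krt19 occurs in another gene.

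Of the simple-epithelial keratins, Krt18 did not follow Krt14, while Krt8 and Krt7 had medians above 0 that were smaller by gene total. Krt18 was higher in 8 pairs and lower in 8, with a median of 0.00, -0.13 by gene total, and medians of 43962 and 39638 in the high and low sisters. Krt8, its type II partner, had a median of 0.45 and 10 of 16 pairs higher, and 0.21 by gene total. Krt7 had a median of 0.54 with 10 of 16 pairs higher, and 0.15 by gene total. Krt15 and Krt13 were at 0 in 28 and 56 of the 96 cells, and their medians were 0.10 and 0.00. Krt10, a keratin of differentiating epidermis, stayed low, with at most 1212 scaled counts in a high sister, a median of 1.11 and 11 of 16 pairs higher. Krt80 had a median of -0.64 with 8 of 16 pairs lower and 3 higher.

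Krt23 was the measured type I keratin past the fold the other way. It was lower in the Krt14-high sister in 12 of 16 pairs, with a median of -0.94, -0.99 by gene total and -0.80 without pair 4. The group medians do not show this: Krt23 was at 33 to 34180 in the high sisters (median 2827) and at 32 to 66413 in the low sisters (median 2116), since the difference lies within pairs. The exceptions include pair 8, in which Krt23 was higher by 10.02. In the 32 other pairs the median was 0.36, with 19 of 32 higher.

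As lists, 3 of 8 measured type I keratins apart from Krt14 were past the fold higher and 1 lower, and 3 of 6 measured type II keratins higher and 1 lower. By gene total these were 2 and 1 of the type I, and 2 and 1 of the type II keratins. Krt20, Krt1, Krt4, Krt75, Krt78 and Krt79 did not pass the filter on counts. The list medians were 0.29 and 0.77, and 0.19 and 0.39 by gene total.

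Levels can be compared between keratins only per length. In deposited TPM, which is scaled by transcript length and library, Krt14 was 202 to 7713 in the high sisters (median 4240) and 16.2 to 4193 in the low sisters (median 1467). Krt5 was at a median of 2701 in the high and 1121 in the low sisters. On this scale Krt5 was higher in the high sister in 14 of 16 pairs, against 13 with ERCC scaling. Trp63, Krt17 and Krt6a were higher in 10, 10 and 11 of 16 pairs, against 12 each with ERCC scaling. The ratio of Krt14 to Krt5 TPM within a cell was a median of 1.56 in the high and 1.10 in the low sisters, and it was higher in the high sister in 11 of 16 pairs. The share of Krt14 in the summed TPM of 27 type I keratins was 2.17 to 47.9% in the high sisters (median 30.3%) and 0.402 to 29.1% in the low sisters (median 20.2%), higher in 14 of 16 pairs, with a median difference of 10.8 percentage points within pairs. The share of Krt5 in the summed TPM of 26 type II keratins was higher in 8 of 16 pairs, at medians of 33.8% and 30.8%. The summed type I TPM over the summed type II TPM had a median of 1.95 in the high and 2.18 in the low sisters, higher in 8 of 16 pairs. The pairs were chosen by Krt14, so its share of the type I keratins is a description; in the 32 other pairs it was higher in 18, with a median difference of 1.49 percentage points.

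**Figure D3:**
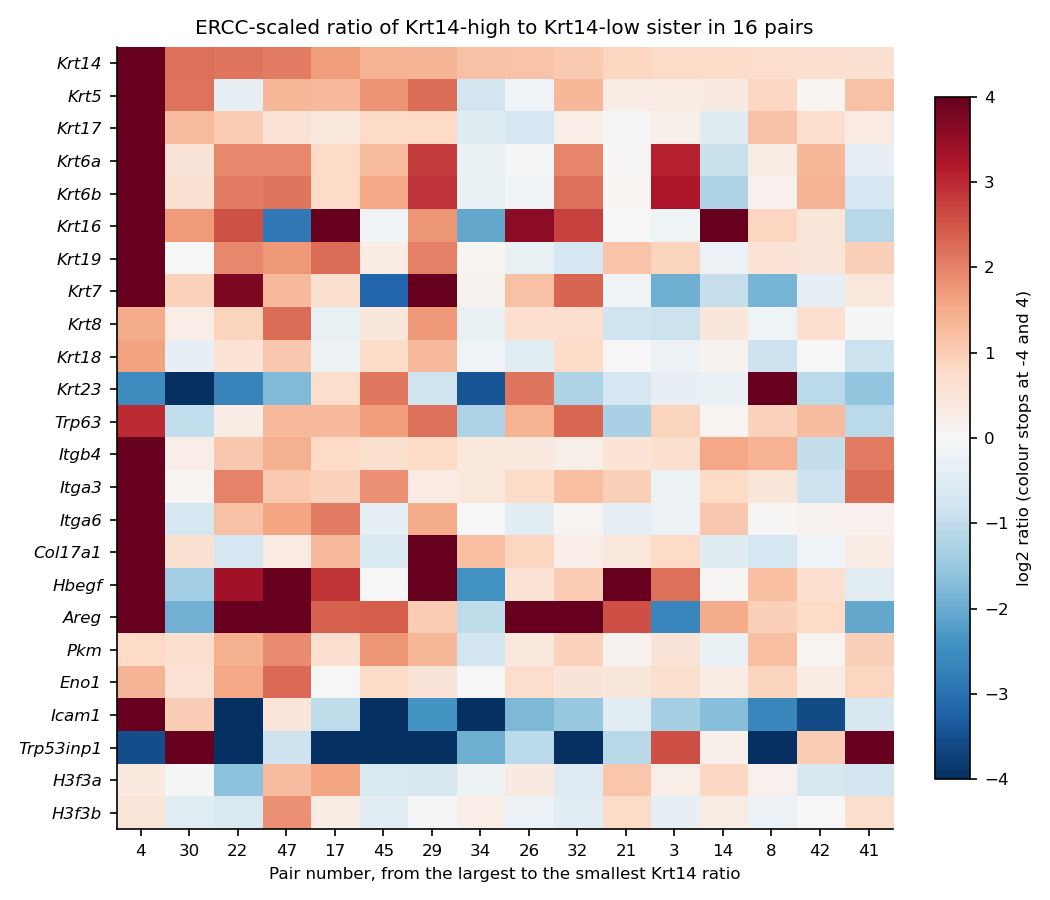
ERCC-scaled log2 ratio of Krt14-high to Krt14-low sister for 24 genes (rows) in the 16 chosen pairs (columns, from the largest Krt14 ratio to the smallest), red for higher and blue for lower in the high sister, with the colour stopping at -4 and 4. Krt14 is red by choice; Itgb4, Pkm and Eno1 are red in most columns, Icam1 and Krt23 are blue in most, Krt18, H3f3a and H3f3b are mixed, and pair 4 is at the end of the scale for most keratins and integrins.

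Of the integrin genes of the basement membrane contact, Itgb4 and Itga3 went with Krt14 in nearly every pair, and Itga6 did not. Itgb4, the beta chain of the hemidesmosome integrin, was higher in 15 of 16 pairs, all but pair 42. It was at 8972 to 103341 in the high sisters (median 44990) and 106 to 71836 in the low sisters (median 26284). Itga3, an alpha chain that binds laminin with integrin beta 1, was higher in 14 of 16 pairs, with medians of 31215 and 16096. The median ratios of Itgb4 and Itga3 were 0.72 and 0.85, and by gene total 0.43 and 0.45, so that neither was past the fold on that scale, while in the 32 other pairs they were 0.06 and -0.01, with 16 of 32 pairs higher for each. Itga6, the partner of Itgb4, had a median of 0.11 with 10 of 16 pairs higher, and Col17a1, a transmembrane collagen of the hemidesmosome, of 0.37 with 11 of 16 higher. Of the 16 genes of the hemidesmosome and basement membrane list, 6 were past the fold higher and 0 lower, with a list median of 0.33, and by gene total 1 was higher and the median was 0.22. The member past the fold on both scales was Lama5, a laminin chain, at 0.87 and 0.72. In most of the 32 other pairs Lama5 was also higher in the sister with more Krt14, with values from -1.38 in pair 11 to 3.63 in pair 31. Its direction was therefore not confined to the chosen pairs.

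Genes of the desmosome, the junction to which keratin filaments attach, went with Krt14 in part. Of 12 measured members, 5 were past the fold higher and 0 lower on either scale, and the list median was 0.51, and 0.35 by gene total. The members furthest apart were Evpl at 2.46 and Ppl at 1.58, which encode the plakins envoplakin and periplakin, each with 12 of 16 pairs higher. Both had medians below 0 in the 32 other pairs, -0.19 and -0.23. Evpl was at 0 in 14 of the 96 cells. The more abundant Dsp, which encodes desmoplakin, had a median of 0.45 with 12 of 16 pairs higher, and 0.13 by gene total. Dsg3, a desmoglein of basal cells, had a median of -0.04.

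Of 16 genes known as targets of p63, 7 were past the fold higher and 0 lower, and 3 and 0 by gene total. The list median was 0.49, and 0.22 by gene total. Sfn, the 14-3-3 sigma protein of epithelia, was higher in 14 of 16 pairs with a median of 0.77, 0.59 by gene total, at 12913 to 284891 in the high and 747 to 149725 in the low sisters. The Notch ligand genes Jag1 and Jag2 were higher in 12 and 13 of 16 pairs, with medians of 0.63 and 0.68, and 0.68 and 0.53 by gene total. Cdkn1a and Perp, which p53 also drives, had medians of 0.06 and 0.18. In the 32 other pairs the list median was 0.05.

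The basal HBC identity list was mixed. Besides Krt5, Trp63 and Itgb4, 2 more of its 12 members were past the fold higher, Cdh3 at 0.90 and Bcam at 1.16, which encode P-cadherin and a laminin-binding adhesion molecule, and both were under the fold by gene total, at 0.56 and 0.55. Pax6, a transcription factor of the OE, was past the fold lower at -0.67, with 7 pairs higher and 9 lower. Without pair 4 only 1 member of the list stayed past the fold lower, and Pax6 did not. Icam1, an adhesion molecule of HBCs, was past the fold lower at -1.62, -1.80 by gene total, and lower in 13 of 16 pairs. In most of the 32 other pairs Icam1 was also lower in the sister with more Krt14, with values from -14.27 in pair 23 to 9.98 in pair 5. This direction was therefore not confined to the chosen pairs. Among those, Icam1 was uneven in level. Its scaled count was 0 to 6188 in the high sisters (median 1358) and 11 to 23476 in the low sisters (median 2623). Pair 4 was 1 of the 3 pairs in which Icam1 was higher in the high sister, by 8.97. The list median was 0.39, and 0.25 by gene total. Sox2 and Egfr had medians of -0.13 and 0.24.

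Of 15 measured wound-response genes, 8 were past the fold higher and 1 lower, and 6 and 1 by gene total, with a list median of 0.77 and 0.55. Areg, Hbegf and Ereg, which encode ligands of the EGF receptor, were each higher in 12 of 16 pairs, with medians of 1.92 for Areg and 1.10 for Hbegf. Their levels were uneven: Hbegf was at 75 to 42382 in the high and 3.4 to 24902 in the low sisters, while the medians of Ereg were 233 and 27.9. Itga5, a fibronectin receptor chain, was the member past the fold lower, at -0.79 with 10 of 16 pairs lower. Yap1, a coactivator of the Hippo pathway, had a median of -0.18, and its target Ccn1 one of 0.77, but of -0.90 in the 32 other pairs. Vim, S100a8 and S100a9 did not pass the filter. This list shares Krt6a, Krt6b, Krt16 and Krt17 with the keratin lists.

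**Figure D4:**
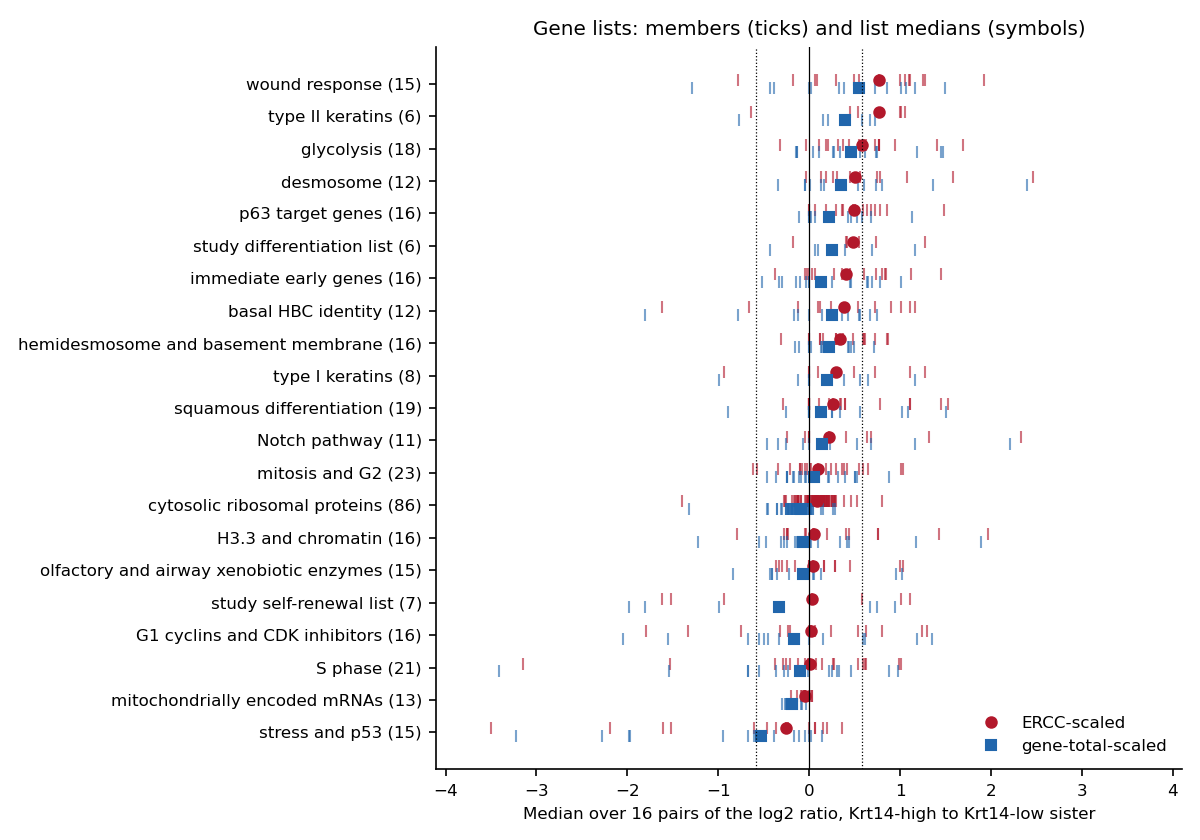
For each list with 5 or more measured members (number in brackets), the median over 16 pairs of the log2 ratio of Krt14-high to Krt14-low sister for every member (ticks) and for the list (red circle with ERCC scaling, blue square by gene total). Dotted lines mark 1.5-fold; wound response and type II keratins lead with 0.77 each, and stress and p53 lies lowest at -0.26, or -0.53 by gene total.

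Of the glycolysis genes, 9 were past the fold higher. This list was added after values had been seen, because Pkm and Eno1 were among the genes most like Krt14. Of its 18 members, the others were within the fold, and by gene total 6 were higher and 0 lower, with list medians of 0.58 and 0.46. Without pair 4, 6 members were past the fold higher. Eno1, which encodes enolase, was higher in 15 of 16 pairs, at 22443 to 825966 in the high sisters (median 225035) and 18092 to 292781 in the low sisters (median 118665). Pkm, which encodes pyruvate kinase, was higher in 14 of 16 pairs, at medians of 197042 and 102826. Gapdh was higher in 14 of 16 pairs by a smaller median of 0.44. Pfkp, a phosphofructokinase, and Slc16a3, which exports lactate, had medians of 1.41 and 1.70. Of the possible reads of Eno1, 49.0% occur also in Eno1b or other copies, so its level is less certain than that of Pkm, with 2.89%. In the 32 other pairs the list median was 0.11, and Pkm was higher in 22 of 32.

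Immediate early genes, which respond to signals within minutes, had a list median of 0.40, and 0.13 by gene total. Of 16 members, 7 were past the fold higher and 0 lower, and 5 and 0 by gene total. Fos, Jun and Junb had medians of 1.45, 0.83 and 0.81, each with 11 of 16 pairs higher. In the 32 other pairs the same 3 genes had medians of -0.20, 0.09 and -0.32. Klf6 and Ier3, which were more abundant, had medians of -0.05 and 0.06.

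Of 15 stress and p53 genes, 0 were past the fold higher, 5 lower and 10 within it, and by gene total 7 were lower, with a list median of -0.26, and -0.53 by gene total. Ddit3, a transcription factor of the unfolded protein response, had a median of -3.50, Gdf15, a secreted stress factor, of -2.19, and Trp53inp1, a p53 target, of -1.52, with 10, 10 and 11 of 16 pairs lower. These genes are on or off in single cells: Trp53inp1 was higher by over 9 on the log2 scale in pairs 30 and 41 and lower by 10.00 in pair 8. Hmox1, an enzyme induced by oxidative stress, was lower in 12 of 16 pairs with a median of -0.46, but higher by 6.72 in pair 4. The abundant chaperone gene Hspa5 had a median of 0.36. The list median over members was above 0 in 6 of 16 pairs, whereas in the 32 other pairs the list median was 0.00.

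Cell cycle genes did not lie on one side. Of 23 genes of mitosis and G2, 4 were past the fold higher and 1 lower, and 1 and 0 by gene total, with list medians of 0.09 and 0.05. Mki67, a marker of cycling cells, was higher in 9 of 16 pairs, with medians of 24624 and 19127. Of 21 genes of S phase, 5 were past the fold higher and 2 lower, with a list median of 0.01. By gene total the S phase counts were 2 and 4, with a median of -0.10, and without pair 4 they were 1 and 2. Within pairs the mitosis list could differ widely, from 5.94 in pair 17 and 2.79 in pair 41 to -2.32 in pair 3. Cyclins and CDK inhibitors of G1 gave 4 past the fold higher and 3 lower of 16 on either scale, with a median of 0.02, and -0.17 by gene total. Cdk6, a kinase of G1, was higher in 12 of 16 pairs with a median of 0.80, and 0.59 by gene total.

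The H3.3 transcripts were on neither side. H3f3a and H3f3b encode the same histone variant. H3f3a was higher in the Krt14-high sister in 8 of 16 pairs with a median of 0.05, and H3f3b in 7 of 16 with a median of -0.05, and the medians were -0.13 and -0.24 by gene total. Of the 16 genes of the H3.3 and chromatin list, 4 were past the fold higher and 1 lower, and 2 and 1 by gene total, with list medians of 0.05 and -0.06. Setdb1, an H3K9 methyltransferase, was higher in 13 of 16 pairs with a median of 1.97, 1.89 by gene total, and the chaperone gene Hira was lower in 10 of 16 with a median of -0.79, -1.22 by gene total.

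The remaining lists gave small medians. The squamous differentiation list had a median of 0.26, with 5 of 19 members past the fold higher and 0 lower, and by gene total one of 0.13, with 3 and 1. Ivl and Tgm1, genes of the cornified envelope, had medians of 1.52 and 1.45, but group medians of only 27 and 10, and 59 and 17, scaled counts. Sprr2a1 and Sprr2a2 share 89.6% and 89.0% of their possible reads with other genes, and no difference between them can be read. The Notch list had a median of 0.22, with 4 of 11 members past the fold higher, and 0.14 with 3 by gene total, but its median was 0.02 without pair 4. The list of xenobiotic enzymes and a few other genes of olfactory and airway epithelium had a median of 0.04, -0.07 by gene total, with 2 of 15 past the fold higher, Aldh1a3, a retinaldehyde dehydrogenase, at 1.00 and Lypd2, which is no enzyme, at 1.03. Ribosomal protein genes had a median of 0.09, and -0.09 by gene total, with 1 of 86 past the fold in each direction, and the 13 mitochondrial mRNAs -0.05 and -0.18, with none past the fold in either direction.

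Gene lists from the study were drawn up on these cells and are not independent evidence of direction. The 7 genes taken here as self-renewal genes include Krt5, Trp63, Trp53inp1, Myc and Fzd7, which the study names as such. The others are Icam1, which it names with Krt5 and Krt14 as lower in a differentiation state, and Krt23, which was added. Krt14, which the study also counts with self-renewal, chose the pairs and was left out. Of the 7 genes, 2 were past the fold higher, Krt5 and Trp63, and 3 lower, Icam1, Krt23 and Trp53inp1, while Myc and Fzd7 had medians of 0.03 and 0.58. The list median of 0.03 became -0.34 by gene total. Of 6 measured genes taken as differentiation genes, of which the text of the study does not name Kdm1a, 2 were past the fold higher, Krt16 at 1.27 and Sox9 at 0.74, and 0 lower, with a median of 0.48. Without pair 4 Sox9 was at 0.00.

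The genes furthest apart by the median were scarce ones. Among genes that reached 10 counts in 50% of the cells and kept 1 direction in at least 75% of the pairs, the 12 largest medians were those of Ppm1f, Flad1, Gpr137, Gcc1, Atp9a, Zfp512b, Kmt2b, Taf6l, Large2, Fkbp15, Fbrs and Mettl3, from 6.64 down to 4.01. In 7 to 11 of the 16 low sisters these genes had fewer than 10 counts. The 12 lowest were those of Ccl25, Smpd2, Mast1, Gm42727, Ces2e, Plekhm3, Pigc, Gkap1, Fancm, Gm5141, Dnajb14 and Robo1, from -6.13 to -2.37. Ppm1f, a phosphatase, had 1063 scaled counts in the median high sister and 5 in the median low sister, and Ccl25, a chemokine, 7 and 402. The median of these genes in the 32 other pairs was 0.33 for the first 12 and 0.22 for the second.

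Among the genes with a mean scaled count of 5000 or more, a filter chosen after values had been seen, 220 of 1513 apart from Krt14, 14.5%, were higher in 12 or more of the 16 pairs and 10, 0.661%, were lower. By gene total these were 97 and 82 genes. The largest medians under the same rule of direction were those of Tbl3, Slc16a3, Trim28, Dnajc11, Pfkp, Slc7a1, Vamp3, Gsn, Ehd2, Gart, Lss and Fam129b, from 2.00 to 1.21. Ehd2, a membrane-shaping ATPase of caveolae, was higher in 15 of 16 pairs, at medians of 8257 and 3967, with 1.26 on ERCC and 1.24 by gene total. Gsn, which encodes gelsolin, an actin-severing protein, was higher in 13 of 16 pairs, at medians of 27042 and 11479. The lower ones were less far apart, from Pdhb at -0.57, a subunit of pyruvate dehydrogenase, to Rps27l at -0.13, and among them were Usp9x, Hmox1, Pclaf and Hat1.

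Likeness to Krt14 was also measured over all 48 pairs as the Spearman correlation of within-pair log2 differences. These correlations describe 48 pairs that share 1 lane and, for ERCC values, the denominator of the cell. By the smaller of the correlations with ERCC and with gene-total scaling, the 5 most like Krt14 were R3hcc1 (0.58), Krt5 (0.57), Bin1 (0.56), Pkm (0.56) and Eif4h (0.56). Without pair 4 the ERCC value of Krt5 was 0.59 in place of 0.61. The median over all genes was 0.06 with ERCC and 0.00 by gene total, and the 99th percentiles were 0.43 and 0.37. Itgb4 ranked 47 and Krt6a 34 of 14462 genes. Trp63 ranked 288, at 0.32 and 0.31, Krt17 1174, and Krt16 3735, at 0.17 and 0.10. R3hcc1, with an R3H domain, is a scarcer gene, at a mean of 714 scaled counts, against 110891 for Krt5 and 192985 for Pkm.

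Sisters of the chosen pairs were also less alike in other genes. Over the 1513 genes of high mean, the median absolute log2 ratio within a pair was 0.443 to 1.27 in the chosen pairs (median 0.645) and 0.388 to 0.817 in the other pairs (median 0.482). By gene total the medians were 0.574 and 0.463. The Spearman correlation of the sisters across these genes was 0.531 to 0.741 in the chosen pairs (median 0.693) and 0.557 to 0.813 in the other pairs (median 0.736). The groups overlapped in each measure. Genes are not independent replicates, and these values describe the pairs only.

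Pair 4 was the extreme pair and is described apart, as 1 cell against 1 cell. Both libraries were deep: the Krt14-high cell had 44849003 gene counts and 12291 genes, and the low cell 38588945 gene counts and 11654 genes. The low cell had the highest mitochondrial share of the 96 cells, 3.84%, against 2.00% in its sister, and the gene-to-ERCC ratio was 1.71 times higher in the high cell. Over 6403 genes with at least 1000 scaled counts in 1 of the cells, the median log2 ratio was 0.92, and 0.15 by gene total. With ERCC scaling, 3659 of the 6403 were past the fold higher in the high cell and 1581 lower. Counts of list members in this pair are to be read against these. The sisters' correlation of 0.531 was the second lowest of the 48 pairs.

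The low cell of pair 4 held little of the basal and wound keratins and much of the simple keratin mRNAs Krt8 and Krt18. Krt14 was at 126636 scaled counts in the high cell and 434 in the low cell, and 133359 in the median of the 94 other cells, so for Krt14 the departure was in the low cell. Krt17 was at 384986 and 483, Krt6a at 726886 and 569, and Krt16 at 86531 and 2.5, from 93688 and 4 counts. Krt5 was less far apart, at 102286 and 4248, and Krt19 at 459138 and 8080. Among the 91 cells with Krt14 above 10000, which include the high cell, the medians of Krt17, Krt6a and Krt19 were 156982, 170952 and 72429. The high cell lay above these medians. It was the highest of the 91 for Krt6a and Krt19, so these 2 departed in both cells. Krt17 ranged from 15619 to 848164 in the 91 cells, so its departure, as for Krt14, was in the low cell. Krt8 and Krt18 differed by 2.80 and 3.07 times, at 44464 and 54049 in the low cell, near the 54112 and 43162 of the median other cell. Krt23 was the keratin with more in the low cell, at 31516 against 5550.

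Most transcripts of the basement membrane contact were also low in the low cell, and Trp63 less so. Of the 16 genes of that list, 12 were at least 1.5-fold higher in the high cell and 2 lower, Cd151 at -1.15 and Col7a1 at -1.53 on the log2 scale. Dst and Itgb1 were higher by only 0.77 and 2.22. The members named next are among those furthest apart. Itgb4 was at 35119 in the high and 106 in the low cell, Itga6 at 41529 and 90.5, Itga3 at 27022 and 77.9, and Col17a1 at 9715 and 40.2, each 242 to 459 times lower in the low cell. Sfn was at 247373 and 747. Trp63 was at 6949 and 882, a ratio of 7.88. H3f3a and H3f3b differed by 1.31 and 1.41 times. Mki67 was low in both cells, at 117 and 75.4, against 16020 in the median other cell.

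**Figure D5:**
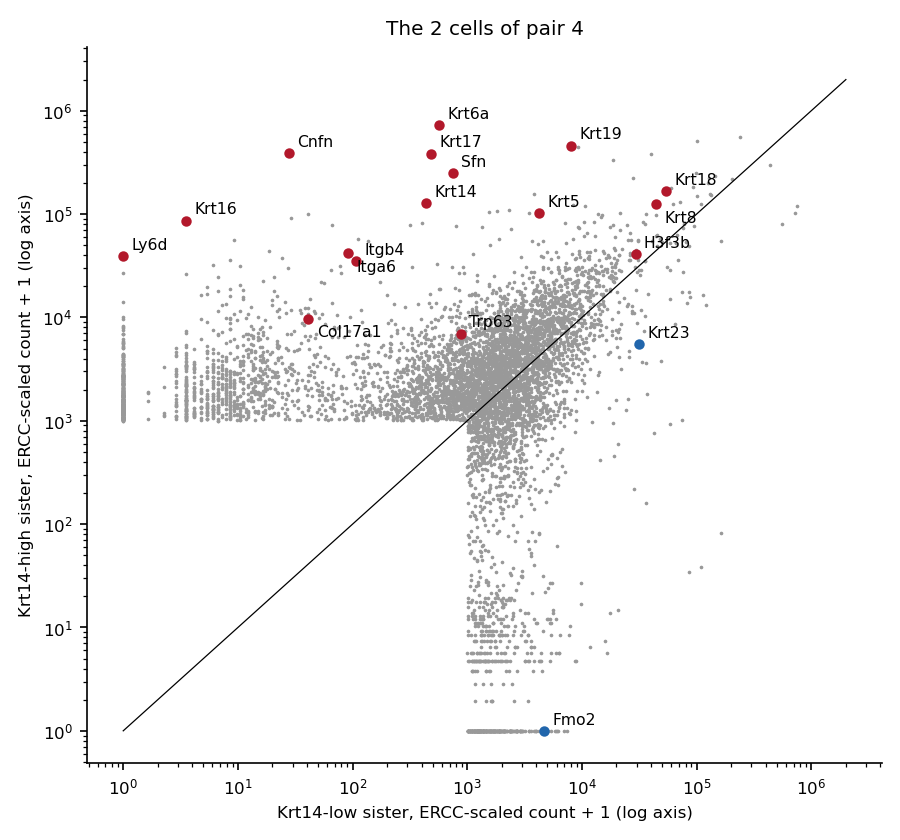
The 2 cells of pair 4, with the ERCC-scaled count + 1 of each gene in the Krt14-low cell on the x axis and in the Krt14-high cell on the y axis, both on log axes, for genes at 1000 or more in 1 of the cells, and the diagonal as the line of equal counts. Named genes above the line are red and below it blue; Krt14, Krt17, Krt6a, Itgb4 and Itga6 lie far above it, Krt8, Krt18 and H3f3b close to it, and Krt23 and Fmo2 below it.

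By size of ratio the high cell of pair 4 led with Ly6d, Mmp10, Krt16, Slc35f5, Cnfn, Artn, Nipal4, Klk10, Ndel1 and Aloxe3. Cnfn, a gene of the cornified envelope, had 423062 counts against 43, and 49 of the 94 other cells had 10 or more counts of it. Ly6d, a surface protein of keratinocytes, had 42268 counts against 0, at least 20706-fold higher by a floor of 3 counts in the low library, and Mmp10, a matrix metalloprotease, 29300 against 0, at least 14353-fold higher. Mmp10 reached 10 counts in 6 of the 94 other cells. Tgm1 and Sbsn, of the squamous list, had 17600 counts against 12 and 34593 against 8. The squamous, wound and desmosome lists had medians of 3.55, 7.16 and 5.43 in this pair, with 14 of 19, 15 of 15 and 11 of 12 measured members at least 1.5-fold higher. Of the 6403 genes above, 3659 were higher by this mark too. These counts are ERCC-scaled and carry the higher RNA content of the high cell.

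On the side of the low cell, the genes of largest ratio included Mettl27, Naprt, Adam28, Hectd3, Gstt2, Prr15, Abca3, Fmo2 and Klhl24, each without a count in the high cell. Fmo2, a flavin monooxygenase, had 7462 counts, at least 1693-fold higher, and Gstt2, a glutathione transferase, 9502, at least 2155-fold higher, and they reached 10 counts in 9 and 6 of the 94 other cells. Other enzymes of foreign compounds lay on the same side. Cyp2a5, a cytochrome P450 of the OE and liver, was at 163218 scaled counts in the low cell and 80.4 in the high cell, and among the 91 other cells with Krt14 above 10000 the highest was 542. Its neighbour Cyp2a4 is a close copy, so reads could be split between them. Ces1d was at 6334 and 4.6, and Adh7 at 3875 and 68.3, while the median other cell had 9572 of Adh7. Of the 15 measured members of the xenobiotic list, 6 were at least 1.5-fold higher in the high cell and 7 lower.

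Low Krt14 alone did not define this profile. Of the 96 cells, 5 were under 10000 scaled counts of Krt14: the low cell of pair 4, both cells of pair 29 and both of pair 19, and the lowest of the other 91 cells was at 21138. The cells of pair 29 had Krt14 of 4982 and 1937, yet held 184850 and 26742 of Krt6a, 42136 and 9017 of Krt5, and no count of Fmo2. The cells of pair 19, with a Krt14 ratio near 1, had Krt14 of 7595 and 7411, Krt17 of 30988 and 42560 and Mki67 of 79388 and 75339, and only 3045 and 1643 of Krt6a. Krt23 was 3922 to 9312 in these 4 cells and 31516 in the low cell of pair 4. In the other 91 its median was 1721 and its highest value 66413. Agr2, a secretory chaperone, was chosen here after its values were seen. It was at 4203 in the low cell of pair 4 and 82.3 to 1564 in the 4 cells of pairs 29 and 19. In the other 91 its median was 0 and its highest value 2498.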

How the data were processed

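RNA was measured in 96 single HBCs, 48 sister pairs, in 1 condition. Reads were trimmed with Trimmomatic 0.39, aligned with STAR 2.7.11a to GRCm38 (Ensembl release 100 plus ERCC) and assigned to genes with StringTie 2.2.1, per the submitters' processing notes and the methods. The authors deposited whole-number read counts per gene, not normalized, and StringTie tables whose TPM values they had scaled with the ERCC transcripts included. No molecular identifiers were used, so PCR copies count as reads, and intervals and floors cover counting error only.

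From the counts, each value was multiplied by the median ERCC total over the cell's ERCC total, and sisters were compared as log2 of the ratio after adding 1. Each gene was summarised by the median over pairs, with 1.5-fold as the mark. A second scale was the total of gene counts. Cells within 1 condition, of unnamed mouse and culture, gave no test and no p-value. Members and lists were chosen with earlier results of these data known. The glycolysis list and the mean of 5000 were added after values were seen. Named by rule were Krt14, all members of the basal, keratin and study lists, up to 4 of highest mean in each other list, 12 genes of largest median in each direction, the 5 most like Krt14, and in pair 4 the 10 largest and 10 smallest ratios among genes with at least 1000 scaled counts in 1 cell. One gene that the rule names is not reported here. Further list members and genes of high mean were named after their values were seen. The code was tested on simulated data. Python 3.11.15, pandas 2.3.3 and scipy 1.17.1 were used.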

Additional observations from a re-analysis of the deposited data

How the results depend on the processing

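The number of chosen pairs was 16, and 15 to 17 when Krt14 was scaled by gene total, by median of ratios over genes or ERCC transcripts, or taken as TPM; a cutoff of 2 gave 10 pairs and a lower cutoff 26. Against 2862 genes higher and 1082 lower, choosing and scaling the pairs by gene total gave 1805 lower. There 51.6% of the genes past the fold were higher, against 72.6% in the main setting. All 48 pairs gave 832 higher and 401 lower, and the mean over pairs 4758 and 2236. The genes of mean 5000 or more, an alternative chosen after seeing the data, gave 210 and 6. Against 75 list members higher and 18 lower, gene total gave 49 higher in the same pairs and 40 in pairs chosen by it, all 48 pairs 15 and 8, the mean over pairs 32 lower, and the genes of mean 5000 or more 36 and 1. The genes of high mean are fewer by construction; the cause of the other shifts was not tested. Without pair 4 the counts were 2738 and 1197, and without pair 47, whose ERCC totals differed by over 2-fold, 2494 and 1360. The medians of 21 lists and of 21 genes were recomputed under up to 13 settings. Each of the 269 list values and 269 gene values so obtained lay within 1 SD over pairs of the first. That SD includes pair 4 and is wide for scarce genes and for abundant ones far apart in pair 4, such as Itgb4 at 8.36. Lying within it is therefore a weak mark of stability: Itgb4 fell from 0.72 to 0.43, under the fold, by gene total. Every value is itself a ratio within a pair, so no further block was used. Cells of unnamed mice in 1 condition limit all values to these pairs, and genes of low count are on or off in single cells.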
